A study of Mus musculus with 16 samples.

Results

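The genes described here are the 10 members *Fos*, *Fosb*, *Fosl1*, *Fosl2*, *Jun*, *Junb*, *Jund*, *Egr1*, *Egr2* and *Egr3*, which encode the FOS and JUN subunits of the transcription factor AP-1 and the early growth response (EGR) zinc finger factors. They were taken by symbol from a table of 54347 genes, and each was found once, so that they make up 7 AP-1 and 3 EGR genes. The table comes from a gain-of-function experiment on the long noncoding RNA gene *Gm15551* in wt1-SAM cells. This is a single immortalized mouse brown preadipocyte line with a stable CRISPR activation system (SAM), in which a dead Cas9 recruits activators to the site that a single guide RNA (sgRNA) names. All cells were differentiated with a cocktail that included rosiglitazone, dexamethasone, insulin and IBMX and were kept on rosiglitazone. Every culture, controls included, received 250 ng of plasmid by reverse transfection on day 4 and was harvested on day 7. The plasmid was either empty, which is the sgRNA vector with no guide, or pSgRNA-MS2-2+7, which is the pair of vectors against *Gm15551* (sgRNA cells). Cells of each plasmid were left as control (ctrl) or stimulated with 1 µM of the β-adrenergic agonist isoproterenol (iso) for the last 24 h. Each of the 4 groups held replicates 3, 4, 5 and 6, which gave 16 libraries of polyadenylated RNA. The labels do not say what a replicate number stands for, so that p-values measure only the spread between these samples, which may be technical.

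AP-1 is a dimer of a FOS and a JUN protein, or of JUN proteins, that binds DNA through a basic leucine zipper. The EGR proteins bind GC-rich sites through zinc fingers. Most of these genes belong to the immediate-early genes, whose transcripts appear within minutes of a stimulus through MAP kinases, serum response factor (SRF) and the cAMP-responsive factor CREB, and decay within hours. *Fosl1* and *Fosl2* are the later members, and *Jund* is made steadily in most cells. β-Adrenergic receptors of brown adipocytes raise cAMP, and all values here were taken a full 24 h after the agonist was added, so that they describe late levels and not the first wave.

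The DNA just upstream of the genes is shown for 3 members on which the comparisons below turn or that are the family's best known example. The windows cover the 250 bases before the RefSeq transcription start in GRCm38.p6 and are printed 5′ to 3′ on the strand of the gene. A window was found for 7 of the 10 members but not for *Fosl1*, *Egr1* and *Egr3*, so that no sequence is shown for *Fosl1*. Capitals mark the letters found in a search of both strands for TGACTCA (the AP-1 site), TGACGTCA (the cAMP response element) and its shorter core TGACG, TGACATCA (the AP-1-like site of the *Jun* promoter), GCGTGGGCG and GCGGGGGCG (EGR sites), and the letters TATAAA of the box near many starts. A match to TGACGTCA also counts as a match to TGACG.

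Fos, chr12:85473640-85473889, plus strand: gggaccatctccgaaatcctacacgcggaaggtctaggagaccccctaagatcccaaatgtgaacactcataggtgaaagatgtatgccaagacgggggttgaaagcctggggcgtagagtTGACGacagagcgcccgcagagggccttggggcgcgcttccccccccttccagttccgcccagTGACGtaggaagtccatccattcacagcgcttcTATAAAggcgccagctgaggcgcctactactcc
Jun, chr4:95052223-95052472, minus strand: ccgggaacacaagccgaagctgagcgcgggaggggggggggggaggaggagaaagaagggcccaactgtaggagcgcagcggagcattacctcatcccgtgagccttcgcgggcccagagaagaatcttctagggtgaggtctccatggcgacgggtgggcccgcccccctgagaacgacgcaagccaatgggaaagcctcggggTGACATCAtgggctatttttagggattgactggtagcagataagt
Junb, chr8:84978749-84978998, minus strand: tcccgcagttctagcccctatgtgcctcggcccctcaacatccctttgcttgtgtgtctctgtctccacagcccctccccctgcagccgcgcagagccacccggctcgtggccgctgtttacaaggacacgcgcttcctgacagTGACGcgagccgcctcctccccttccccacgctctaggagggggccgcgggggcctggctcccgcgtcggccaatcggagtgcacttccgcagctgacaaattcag

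The *Fos* window held the core TGACG at 129 to 125 and at 66 to 62 bases before the start and a TATA box at 33 to 28. *Jun* held TGACATCA at 45 to 38 bases before the start, and *Junb* held TGACG at 106 to 102. The other windows gave TGACG for *Fosb* at 60 to 56 and for *Egr2* on both strands, and GCGGGGGCG for *Fosb* at 50 to 42 and for *Fosl2* at 79 to 71. The letters TGACTCA, TGACGTCA and GCGTGGGCG were in no window of these 7 members. Of 32851 windows of the same length, 17.8% held TGACG, 12.4% TATAAA, 4.46% TGACTCA, 2.93% TGACATCA, 2.57% GCGGGGGCG, 1.55% TGACGTCA and 0.536% GCGTGGGCG. A match is a description of the letters and was not tested as a binding site.

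Estimated counts summed to between 9053521 and 16546187 per library. A single ribosomal RNA gene, *CT010467.1*, took between 11.7% and 51.8% of them, with group means of 29.0% ± 12.8 in empty ctrl, 36.8% ± 12.8 in empty iso, 19.1% ± 1.11 in sgRNA ctrl and 21.1% ± 7.18 in sgRNA iso (SD, n = 4 each). In 8 of 8 pairs of equal treatment and replicate number the empty vector library had more of it, and 3 empty vector libraries (ctrl replicate 5, iso replicates 3 and 5) exceeded 40%. Adipocyte markers were abundant, with *Fabp4* at 14462 and *Adipoq* at 580 CPM (estimated counts scaled to the TMM library size) on average. The 10 brown markers were spread widely, from *Elovl3* at 267, *Ppargc1a* at 51.9, *Ebf2* at 15.3 and *Ppara* at 12.0 CPM to *Prdm16* at 1.14 and *Cox8b* at 0.799 CPM, and *Dio2* had 1 count in all libraries. The targeted *Gm15551* had a log2 fold change of 2.37 in sgRNA cells, which was not called (adjusted p 0.0989), and of 2.41 with the replicate block, which was (adjusted p 0.00055). *Ucp1*, the uncoupling protein of brown fat, rose with isoproterenol (4.03, adjusted p 7.36e-06 without the block). Both genes were low. The summed level of *Gm15551* and *Ucp1* was 0.390 to 1.81 CPM in empty ctrl, 4.45 to 10.0 in empty iso, 1.65 to 4.90 in sgRNA ctrl and 7.41 to 16.6 in sgRNA iso.

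How strongly are the members expressed? Levels between genes were compared as CPM per kilobase of exon. *Jund* came first with 17.3 ± 3.94, followed by *Jun* with 14.9 ± 3.85, *Fosl1* with 12.4 ± 5.42 and *Junb* with 6.70 ± 2.00 CPM per kb (SD, n = 16 libraries). *Fosl2* was at 3.27 ± 0.682, *Egr1* at 2.01 ± 0.564, *Fos* at 1.65 ± 0.705 and *Egr2* at 0.550 ± 0.217 CPM per kb. On this scale the JUN genes and *Fosl1* were thus the main AP-1 transcripts, and *Fos* itself was a minor one. The length used is that of all annotated exons of a gene, with 9680 bases for *Fosl2*, 2033 for *Fosl1* and 1668 for *Jund*, and not that of the transcripts present. In CPM without length *Fosl2* (31.6) was below *Jun* (47.6) but above *Jund* (28.8), *Fosl1* (25.2) and *Junb* (15.4). The order at the top differed between groups. *Fosl1* was at 7.53 and 8.19 CPM per kb in empty vector and sgRNA controls, and at 17.4 and 16.4 with isoproterenol. In stimulated empty vector cells its mean was thus above those of *Jund* (14.5) and *Jun* (12.2), and in the other groups below both. Neighbours in the order over all libraries were not all separated. *Jund* exceeded *Jun* in 14 of 16 libraries, *Jun* exceeded *Fosl1* in 10 and *Egr1* exceeded *Fos* in 11, and in these 3 cases the difference between the means was smaller than the SD of either gene. *Fosl1* exceeded *Junb* in 13, *Junb* exceeded *Fosl2* in 15 and *Fosl2* exceeded *Egr1* in 15 libraries, while *Fos* lay above *Egr2* in all 16.

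*Fosb* and *Egr3* stood at the end of the order with 0.104 ± 0.0458 and 0.0376 ± 0.0293 CPM per kb. *Fosb* (ENSMUSG00000003545, chromosome 7:19302696-19310051) had 2 to 16 counts per library and 128 in all. *Egr3* (ENSMUSG00000033730, chromosome 14:70077203-70082614) had 0 to 6 counts, 33 in all and none in 2 libraries, where a count of 0 allows up to 3 counts. That limit corresponds to between 0.166 and 0.390 CPM depending on the library and covers counting error only. Both genes were left out of the tests by the filter on low counts, and a difference between groups could not be seen at this depth. The other 8 members were tested among 13150 genes.

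**Figure D1:**
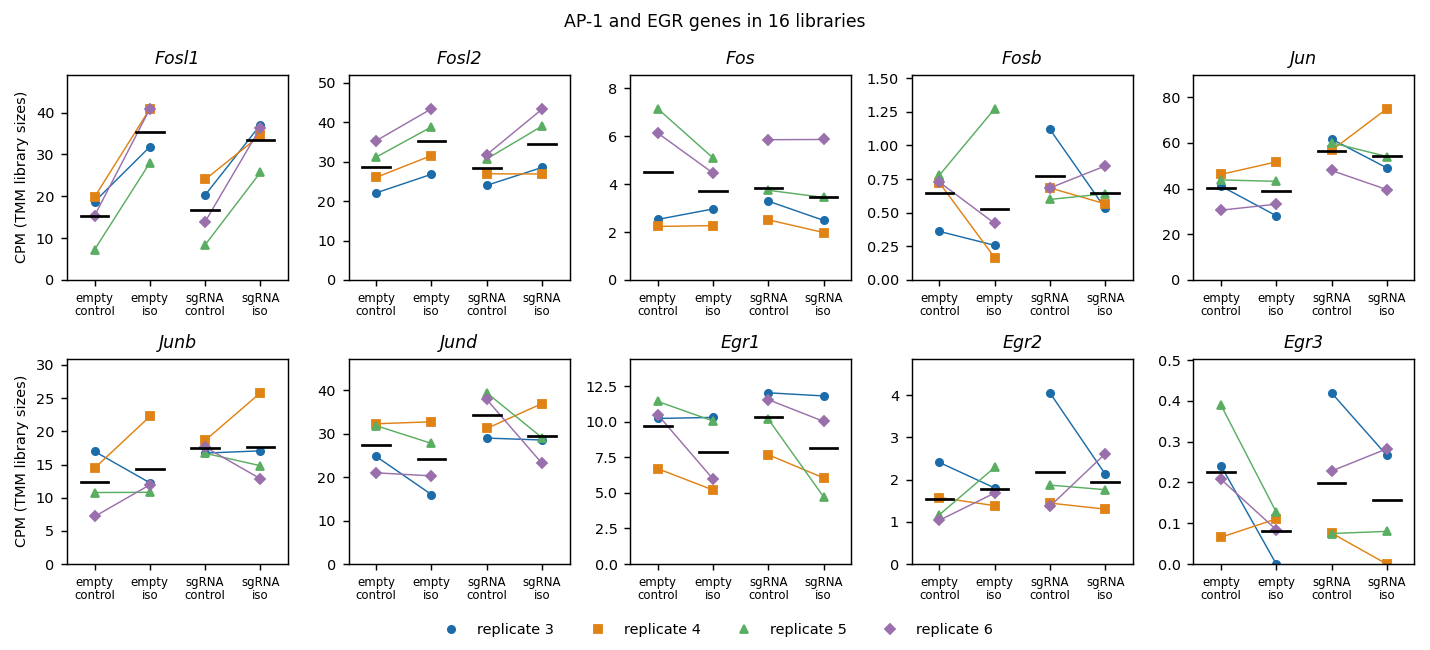
Values of the 10 members in each library, in CPM with TMM library sizes on a linear axis from 0, for the 4 groups of plasmid (empty or sgRNA) and treatment (control or iso). Symbols and colours give the replicate number, lines join control and stimulated libraries of the same number and plasmid, and black bars are group means (n = 4). All *Fosl1* lines go up, and for *Jun* the sgRNA groups (means 56.5 and 54.4 CPM) sit above the empty vector groups (40.4 and 39.0 CPM).

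*Fosl1*, which encodes the FOS family protein FRA-1, was the only member of the 8 that was called with isoproterenol, and it rose 2.14-fold. A gene is termed called where its Benjamini-Hochberg adjusted p from edgeR's quasi-likelihood test over 13150 genes was under 0.05 and its log2 fold change was beyond 0.5 in size. Averaged over both plasmids, 2.65% of all tested genes were called (1.33% as higher and 1.32% as lower), and in the fit with a block for replicate number 5.7% were, again with *Fosl1* alone among the members. The gene (ENSMUSG00000024912) spans chromosome 19:5447547-5455946 on the plus strand. In empty vector cells its levels in replicates 3, 4, 5 and 6 were 18.7, 19.8, 7.27 and 15.4 CPM in ctrl and 31.8, 40.9, 28.0 and 40.9 CPM in iso. In sgRNA cells they were 20.3, 24.0, 8.38 and 13.9 CPM in ctrl and 37.0, 34.6, 25.7 and 36.4 CPM in iso. Every stimulated library lay above every control library, and replicate 5 was the lowest of its group in all 4 groups. The level was higher with isoproterenol in 8 of 8 pairs, by 1.44-fold to 3.82-fold with a median of 2.33-fold.

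The averaged log2 fold change of *Fosl1* was 1.10 (SE 0.21, 95% interval 0.65 to 1.55, adjusted p 0.00611), and 1.14 with the replicate block (adjusted p 4.54e-06). With the empty vector its mean was 15.3 ± 5.68 in ctrl and 35.4 ± 6.53 CPM in iso, and with the sgRNA vectors 16.7 ± 6.92 and 33.4 ± 5.25 CPM (SD, n = 4 each). The corresponding log2 fold changes were 1.19 (adjusted p 0.0846) and 1.00 (adjusted p 0.198), neither of which was called in comparisons that called 0.829% and 0.7% of all genes. With the replicate block they were 1.23 (adjusted p 0.000191) and 1.05 (adjusted p 0.000632), and both were called, against 4.47% and 3.9% of all genes. The difference between both arms was −0.19 (SE 0.42, 95% interval −1.07 to 0.69, adjusted p 1), and −0.18 with the block (95% interval −0.68 to 0.32). A different response in sgRNA cells was thus not detected. The averaged call was lost without all libraries of replicate 3 (1.21, adjusted p 0.0640) and of replicate 6 (0.99, adjusted p 0.0672), but not when any single library was left out, with values between 0.98 and 1.21.

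On the scale per kilobase, *Fosl1* was at 7.53 ± 2.79 and 8.19 ± 3.40 CPM per kb in the control groups, between *Junb* and *Jun*. In the stimulated groups it was at 17.4 ± 3.21 and 16.4 ± 2.58 CPM per kb, near *Jund* with 14.5 ± 4.49 and 17.6 ± 3.39 (SD, n = 4). A limit applies to this gene. Of its 2033 exonic bases, 57.2% are also exonic in *Ccdc85b*, a protein-coding gene on the other strand, and the use of read strand in counting is not given in the sources used here, so that reads of both genes cannot be told apart there. *Ccdc85b* itself was listed at 6.10 to 17.3 CPM, and its isoproterenol effect was 0.25 (adjusted p 0.523, and 0.157 with the block).

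*Fosl2*, which encodes the related FRA-2, differed in the same direction but by less than the bound. Its levels (ENSMUSG00000029135, chromosome 5:32135801-32157842) in replicates 3, 4, 5 and 6 were 22.1, 26.0, 31.2 and 35.3 CPM in empty ctrl and 26.8, 31.5, 38.8 and 43.4 CPM in empty iso. In sgRNA cells they were 24.0, 26.9, 30.7 and 31.8 CPM in ctrl and 28.5, 26.9, 39.0 and 43.3 CPM in iso. The groups overlapped, because replicate 3 was the lowest or near the lowest everywhere and replicate 6 the highest. Within pairs the stimulated library was higher in 7 of 8, with ratios between 0.998 in sgRNA replicate 4 and 1.36. The averaged log2 fold change was 0.29 (SE 0.13, adjusted p 0.265). With the replicate block it was 0.28 (95% interval 0.16 to 0.39, adjusted p 0.00162), which passed the adjusted p alone, as did 21.3% of all genes in that fit, and lay under the bound of 0.5. It was 0.30 in empty vector and 0.28 in sgRNA cells.

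*Fos* (ENSMUSG00000021250, chromosome 12:85473890-85477273) was low and did not pass. It was at 2.53, 2.23, 7.14 and 6.13 CPM in empty ctrl and at 2.96, 2.27, 5.09 and 4.46 CPM in empty iso, in the order of the replicate numbers. In sgRNA cells it was at 3.29, 2.51, 3.74 and 5.85 CPM in ctrl and at 2.49, 1.98, 3.44 and 5.86 CPM in iso. All groups overlapped, with replicates 5 and 6 above replicates 3 and 4. Its isoproterenol effect was −0.21 (SE 0.30, 95% interval −0.86 to 0.43, adjusted p 0.789), and −0.20 with the block (−0.52 to 0.11, adjusted p 0.375). The stimulated library was higher in 3 of 8 pairs. Counts of 23 to 83 per library stood behind these values.

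The JUN genes encode the proteins with which FOS proteins pair to bind DNA. None of them was called with isoproterenol. The averaged log2 fold changes were −0.05 for *Jun* (95% interval −0.35 to 0.25, adjusted p 0.904), 0.12 for *Junb* (−0.29 to 0.53, adjusted p 0.817) and −0.20 for *Jund* (−0.51 to 0.11, adjusted p 0.540). The stimulated library was higher in 3, 5 and 2 of 8 pairs. With the replicate block the intervals were −0.25 to 0.12 for *Jun*, −0.18 to 0.36 for *Junb* and −0.43 to 0.007 for *Jund*. Without the block they leave room for changes of up to 0.53 on the log2 scale in *Junb*. With the block they leave room for −0.43 in *Jund*, so that similar levels are not shown.

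The EGR genes were likewise not called. *Egr1* (ENSMUSG00000038418, chromosome 18:34859823-34864984), an early growth response factor that serum and many other stimuli induce, was at 10.2, 6.70, 11.4 and 10.5 CPM in empty ctrl and 10.3, 5.20, 10.1 and 5.97 CPM in empty iso. In sgRNA cells it was at 12.0, 7.68, 10.2 and 11.6 CPM in ctrl and 11.8, 6.05, 4.73 and 10.0 CPM in iso. The groups overlapped, and replicate 4 was low in each of them. Within pairs the stimulated library was higher in only 1 of 8, by 1.01-fold, and the lowest ratio was 0.466 in sgRNA replicate 5. The averaged effect was −0.33 (SE 0.21, adjusted p 0.442), and −0.34 with the block (95% interval −0.65 to −0.03, adjusted p 0.110). When the share of the ribosomal RNA gene was added to the block as a covariate, a fit chosen after seeing the data that called 5.55% of all genes, *Egr1* was called as lower with −0.52 (adjusted p 0.00607). *Egr2* (ENSMUSG00000037868, chromosome 10:67535475-67542188), known from nerve myelination and immune cells, was between 1.04 and 4.06 CPM and had an effect of −0.01 (SE 0.26, 95% interval −0.57 to 0.55, adjusted p 0.993). With the block its interval was −0.41 to 0.52.

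The median isoproterenol effect of the 8 tested members was −0.03, against 0.00 over all tested genes, and 3 of 8 were above 0. The interaction of plasmid and treatment was called for 0 of 8 members and for 0% of all genes in edgeR without and with the block. An unadjusted p under 0.05 was found for 52 (0.395%) and 199 (1.51%) genes in these fits. Both shares are smaller than the threshold of 0.05 gives without any effect.

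**Figure D2:**
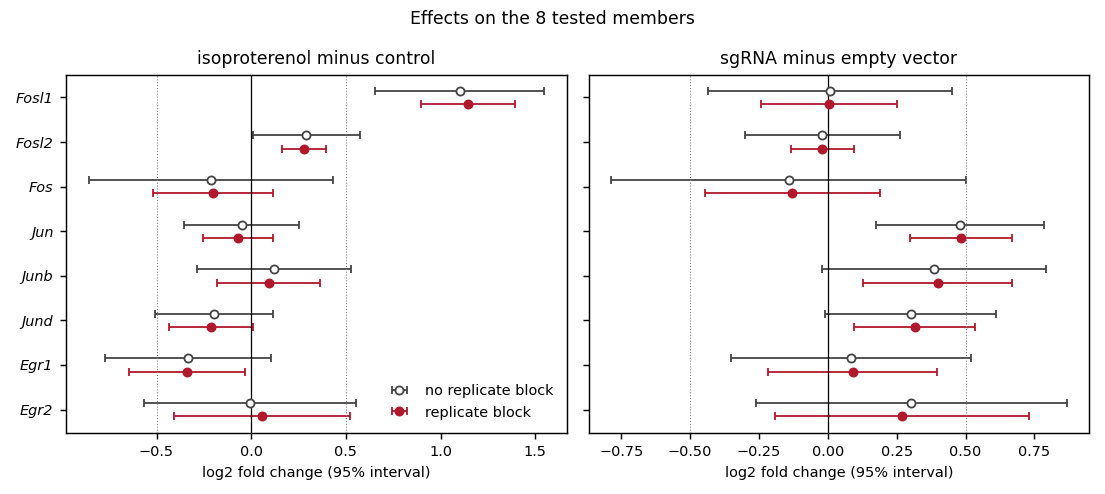
Log2 fold changes of the 8 tested members with 95% intervals from edgeR, for isoproterenol minus control averaged over plasmids (left) and sgRNA minus empty vector averaged over treatments (right), without (open) and with (filled) the replicate block. Dotted lines mark the bound of 0.5. *Fosl1* is the only member beyond it on the left, at 1.10 and 1.14, and on the right *Jun*, *Junb* and *Jund* lie between 0.30 and 0.48.

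Does the plasmid matter for these genes? Without the block, edgeR called 0 of 8 members and 0% of all genes for the sgRNA effect averaged over treatments, while DESeq2 called 10 genes. In that edgeR fit 437 genes (3.32%) had an unadjusted p under 0.05, a smaller share than this threshold gives without any effect. With the block 0.266% of all genes were called, and no member was among them. The member with the largest difference was *Jun* (ENSMUSG00000052684, chromosome 4:95049034-95052222, 1 exon). It was at 41.0, 46.2, 43.8 and 30.5 CPM in empty ctrl and at 61.6, 56.6, 60.0 and 47.9 CPM in sgRNA ctrl. In stimulated cells it was at 28.1, 51.6, 43.1 and 33.1 CPM with the empty vector and at 49.0, 74.9, 54.0 and 39.5 CPM with the sgRNA vectors. In control cells the groups did not overlap, whereas in stimulated cells they did, and sgRNA iso replicate 4 was the highest of all libraries.

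In 8 of 8 pairs the sgRNA library had more *Jun*, by 1.19-fold to 1.74-fold. The averaged log2 fold change was 0.48 (SE 0.14, adjusted p 0.9997), and 0.48 with the block (95% interval 0.30 to 0.67, adjusted p 0.0173). The latter passed the adjusted p alone, as did 0.586% of all genes in that fit, but lay under the bound. The ribosomal RNA share was higher with the empty vector in each pair, so that a covariate for it can take up part of a plasmid difference. The *Jun* difference was smaller in fits that took this share into account. It was 0.28 (adjusted p 0.753) with that share as a covariate, 0.32 (adjusted p 1) with the covariate and the block, and 0.43 (adjusted p 0.0745) with the block and without the 3 libraries above 40%. With the block and without replicate 4 it was 0.51 (adjusted p 0.0348), which put *Jun* among 22 called genes.

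The other JUN genes showed smaller differences in the same direction, and neither passed. *Junb* (ENSMUSG00000052837, chromosome 8:84974484-84978718) was at 17.0, 14.5, 10.8 and 7.17 CPM in empty ctrl and 16.7, 18.6, 16.7 and 17.6 CPM in sgRNA ctrl. In stimulated cells the values were 12.2, 22.2, 10.8 and 11.9 CPM with the empty vector and 17.1, 25.8, 14.8 and 12.9 CPM with the sgRNA vectors. The groups overlapped in both treatments. Its averaged effect was 0.38 (SE 0.19, adjusted p 0.9997; with the block 0.40, adjusted p 0.225), higher in 7 of 8 pairs, but it was −0.02 once the ribosomal RNA share entered as a covariate. *Jund* (ENSMUSG00000071076, chromosome 8:70698949-70700616, 1 exon) was at 24.7, 32.3, 31.8 and 21.0 CPM in empty ctrl and 29.0, 31.2, 39.4 and 37.8 CPM in sgRNA ctrl. In stimulated cells it was at 15.98, 32.7, 27.7 and 20.3 CPM with the empty vector and 28.5, 36.9, 29.1 and 23.2 CPM with the sgRNA vectors. Again the groups overlapped. Its effect was 0.30 (SE 0.15, adjusted p 0.9997; with the block 0.31, adjusted p 0.242), higher in 7 of 8 pairs, and 0.19 with the covariate.

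Each JUN gene also overlaps a gene on the other strand. *Junb* shares 7.52% of its exonic bases with *Prdx2*, which was at 149 CPM on average, *Jun* shares 7.28% with the antisense gene *Junos* at 0.837 CPM, and *Jund* shares 52.6% with the antisense gene *Gm11175* at 1.09 CPM. Reads in these bases cannot be told apart, and the *Prdx2* effects were 0.08 for isoproterenol and −0.15 for the sgRNA.

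The remaining members had sgRNA effects of 0.01 for *Fosl1* (95% interval −0.43 to 0.45), −0.02 for *Fosl2* (−0.30 to 0.26), −0.14 for *Fos* (−0.79 to 0.50), 0.08 for *Egr1* (−0.35 to 0.52) and 0.30 for *Egr2* (−0.26 to 0.87), and the adjusted p from edgeR was 0.9997 for all 5. With the block the intervals were −0.24 to 0.25, −0.13 to 0.09, −0.45 to 0.19, −0.22 to 0.40 and −0.19 to 0.73, in the same order. The median over the 8 members was 0.19, against −0.01 over all tested genes.

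Because the ribosomal RNA share differed between the plasmids, its relation to each member was computed over the 16 libraries, as 8 relations with permutation tests and Benjamini-Hochberg adjustment. For *Junb* Pearson's r was −0.68 (permutation p 0.00396, adjusted 0.0317) and Spearman's rho −0.74 (p 0.00139, adjusted 0.00556), and r was −0.66 without the 2 libraries farthest from the median share. For *Jun* r was −0.61 (permutation p 0.0127, adjusted 0.0508), rho −0.76 (p 0.00097, adjusted 0.00556), and r −0.89 without those 2 libraries. For *Jund* r was −0.46 (permutation p 0.0708, adjusted 0.142), rho −0.59 (p 0.0193, adjusted 0.042) and r −0.88 without them. All JUN genes were thus lower in libraries with more ribosomal RNA. Within replicate numbers r was −0.63 for *Junb*, −0.75 for *Jun* and −0.63 for *Jund*. Within the plasmids the values differed, with −0.48, −0.20 and −0.15 in the 8 empty vector libraries and −0.89, −0.92 and −0.69 in the 8 sgRNA libraries, in the same order. *Fos* went the other way with r of 0.57 (permutation p 0.0196, adjusted 0.0523) and rho of 0.58 (p 0.021, adjusted 0.042), and r was 0.37 without the 2 libraries. For *Fosl1*, *Fosl2*, *Egr1* and *Egr2* r was −0.09, 0.38, 0.33 and −0.02. In the JUN differences the ribosomal RNA share and the plasmid cannot be told apart, since the share was higher with the empty vector in each pair.

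**Figure D3:**
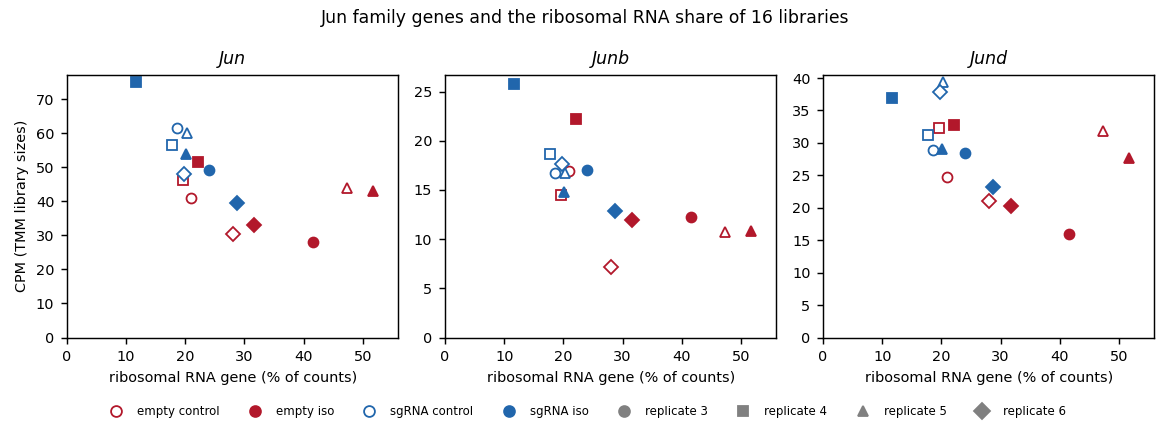
*Jun*, *Junb* and *Jund* in CPM (linear axis from 0) against the percentage of each library's counts that fell on the ribosomal RNA gene, over 16 libraries. Colour gives the plasmid (red empty, blue sgRNA), filling the treatment and shape the replicate number. The 3 libraries above 40% are all empty vector libraries, and the library with the lowest share (11.7%) had the highest *Jun* and *Junb*.

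How much do the libraries differ by replicate number? The replicate effect, a test of the replicate terms beside the group means, passed an adjusted p under 0.05 for 7 of the 8 members, against 54.7% of all tested genes. *Fosl2* had the smallest adjusted p (4.39e-05), and its means in replicates 3, 4, 5 and 6 were 25.3, 27.8, 34.9 and 38.4 CPM. *Fos* had means of 2.82, 2.25, 4.85 and 5.57 CPM (adjusted p 0.000261). *Fosl1* showed another order, with 27.0, 29.8, 17.3 and 26.6 CPM (adjusted p 0.00243). *Fos* and *Fosl2* were thus highest in replicates 5 and 6, whereas *Fosl1* was lowest in replicate 5.

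For the JUN genes the means were 45.0, 57.3, 50.2 and 37.8 CPM in *Jun* (adjusted p 0.00384), 15.7, 20.3, 13.3 and 12.4 CPM in *Junb* (adjusted p 0.00986) and 24.5, 33.3, 32.0 and 25.6 CPM in *Jund* (adjusted p 0.0252). Replicate 4 was the highest in all of them. *Egr1* had 11.1, 6.41, 9.10 and 9.51 CPM (adjusted p 0.0222), with replicate 4 the lowest, and *Egr2* did not pass (adjusted p 0.0847). The call was lost for *Fosl1* without replicate 5 (adjusted p 0.315), for *Junb* without replicate 4 (0.155) and for *Jun* without replicate 6 (0.107). That of *Egr1* was lost in 7 and that of *Jund* in 4 of 23 alternatives. Preadipocyte and fibroblast markers also differed between the replicate numbers. Their summed level was 142 to 182 CPM in the libraries of replicate 6 and 37.4 to 82.4 CPM in all others, and their part in the member differences was not tested. In bulk RNA, more cells of a type and more RNA per cell cannot be told apart.

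As shares of the sum of squares of log2 CPM, the replicate number held 81.7% in *Fos* and 70.2% in *Fosl2*, against a median of 46.8% over all tested genes, and between 25.8% (*Fosl1*) and 43.0% (*Egr1*) in the other 6 tested members, all below that median. Isoproterenol held 64.7% in *Fosl1*, 23.5% in *Fosl2* and 18.3% in *Egr1*, against a median of 6.79%, and between 1.01% (*Egr2*) and 10.5% (*Jund*) in the others. The plasmid held 43.9% in *Jun*, 25.7% in *Junb* and 22.4% in *Jund*, against a median of 2.38%, and between 0.0131% (*Fosl1*) and 7.56% (*Egr2*) in the others. These shares describe the libraries and carry no test.

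**Figure D4:**
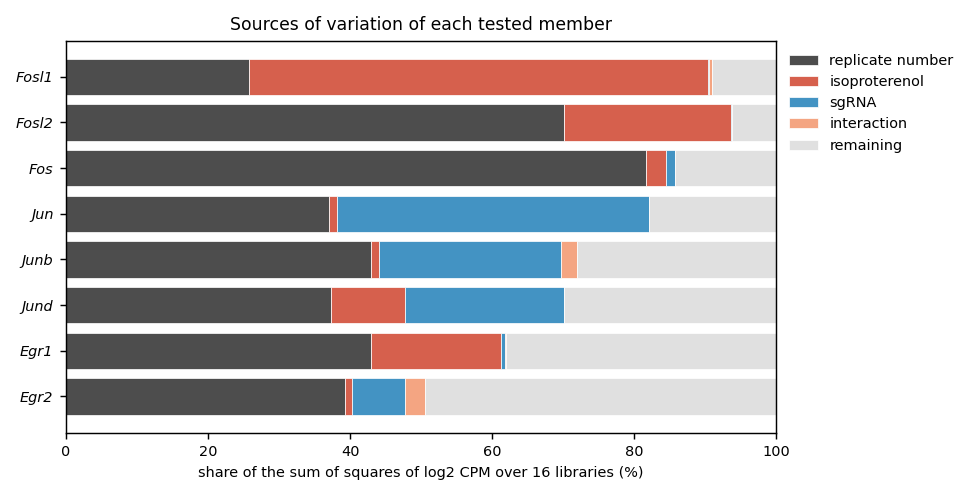
Share of the sum of squares of log2 CPM over 16 libraries that goes with replicate number, isoproterenol, sgRNA, their interaction and the remainder, in percent, for the 8 tested members. Isoproterenol takes most in *Fosl1* (64.7%), the replicate number in *Fos* (81.7%) and *Fosl2* (70.2%), and the sgRNA most in *Jun* (43.9%).

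The genes most like each member were named by the highest Pearson r of log2 CPM over the 16 libraries, which share depth, ribosomal RNA content and replicate number, so that the values are descriptions. For *Fosl1* they were *Clcf1* (0.940), *Gm32856* (0.940) and *Thbd* (0.932), and after the group means were taken out *Nxn* (0.948), *Pik3cd* (0.928) and *Prkar1b* (0.917). None of the 3 names was the same once the treatment difference was gone. For *Fosl2* they were *Sav1* (0.945), *Lrp1* (0.943) and *Cxxc5* (0.934), and after the group means *Fam53c* (0.985), *Foxn3* (0.969) and *Nfil3* (0.968). *Fos* was nearest to *Agtpbp1* (0.937), *Sap130* (0.934) and *Bgn* (0.932), and after the group means to *Hspb6* (0.961), *Rps4l* (0.959) and *Cdh11* (0.950).

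*Jun* was closest to the noncoding host gene *Snhg20* both before (0.941) and after (0.957) the group means were removed, followed by *Borcs6* (0.927) and *Gtpbp2* (0.925), or by *Gtpbp6* (0.939) and *2310009B15Rik* (0.931). *Borcs6* also led for *Jund* (0.908), with *Macrod1* (0.889) and *Ppp1r12c* (0.872), while after the group means *Paf1* (0.934), *Mid1ip1* (0.917) and *Cebpb* (0.895) did. *Junb* was nearest to *2410004B18Rik* (0.931), *Maff* (0.924), which encodes a small leucine zipper protein, and *Otud3* (0.916), and after the group means to *Cbx1* (0.970), *Prdx5* (0.959) and *Arpc1b* (0.956). *Egr1* and *Egr2* had looser neighbours. For *Egr1* these were *Vps25* (0.810), *Ccdc17* (0.777) and *H4c9* (0.765), or *H4c9* (0.848), *Gm16062* (0.840) and *Kat7* (0.809) after the group means. For *Egr2* they were *Abcb6* (0.725), *Brap* (0.686) and *Pwp2* (0.675), or *Ttc13* (0.861), *Pwp2* (0.856) and *Slc19a1* (0.823). Among the members themselves, with group means and replicate number both taken out, r was 0.753 for *Jun* and *Jund*, 0.730 for *Junb* and *Jund* and 0.632 for *Jun* and *Junb*. Such values were not particular to the JUN genes. For *Fos* and *Egr1* r was 0.680, for *Fosl1* and *Fosl2* 0.664 and for *Fosl1* and *Egr2* 0.611. The remaining pairs lay between −0.540 (*Fosl2* and *Junb*) and 0.435 (*Fosl2* and *Egr2*).

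The other genes of the pathway are given by lists, beginning with the proteins that share dimers or sites with AP-1. Of 19 related leucine zipper genes 15 were tested, and none was called with isoproterenol, with a median of 0.06 against 0.00 over all genes. Over all tested genes 2.65% were called, so that no call in lists as short as those of this paragraph is near that share. The most abundant were *Atf4*, the factor of the integrated stress response, with 0.15 at a mean of 404 CPM, *Cebpb*, an early factor of fat cell differentiation, with 0.05, and *Nfe2l2*, which encodes the antioxidant regulator NRF2. *Nfe2l2* had 0.36 with an adjusted p of 0.0260, under the bound. *Batf*, *Batf2* and *Batf3* were among those too low to test. Of 6 further EGR-related genes 4 were tested and none was called, among them the corepressor *Nab1* with 0.10 and the zinc finger genes *Klf10* with 0.16 and *Klf11* with −0.31. *Egr4* had 0 counts in every library.

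Upstream of the members, none of 7 tested genes of the SRF group and none of 16 tested MAP kinase genes was called with isoproterenol. Over all tested genes 2.65% were called (5.7% with the block), so that no call in lists of this length is near that share. *Srf* itself had 0.10, its cofactors *Elk1* and *Elk4* had −0.12 and 0.13, and *Elk3* had 0.64 (adjusted p 0.182), which passed with the block (0.68, adjusted p 0.00086). Among the kinases *Mapk14*, which encodes p38α, had −0.06 and *Rps6ka3*, a ribosomal S6 kinase, had −0.28 (adjusted p 0.0635). The median of the kinase list was −0.05. These are transcript levels, and phosphorylation was not measured.

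Of 27 other immediate-early genes 26 were tested, and 3 rose with isoproterenol while none fell, with a median of 0.14. Over all tested genes 1.33% were called as higher and 1.32% as lower, and the median was 0.00466. *Sik1*, a cAMP-induced kinase, rose by 1.01 (SE 0.13, adjusted p 0.000216), with means of 10.6 ± 1.92 and 22.1 ± 6.06 CPM for the empty vector and of 10.6 ± 0.997 and 20.6 ± 3.34 CPM for the sgRNA vectors (ctrl and iso, SD, n = 4). *Ier3*, a regulator of cell survival, rose by 0.68 (adjusted p 0.0209) and the kinase gene *Pim1* by 0.61 (adjusted p 0.0119). The call of *Ier3* was lost when 1 of 4 single libraries was left out (empty ctrl replicates 3 and 5, empty iso replicate 6, sgRNA ctrl replicate 5), with adjusted p of up to 0.0542. The most abundant genes of the list, the antiproliferative gene *Btg1*, the small GTPase gene *Rhob* and the kinase gene *Sgk1*, had −0.06, −0.38 (adjusted p 0.257) and 0.15. For the sgRNA effect *Ier5l* passed with the block only (0.69, adjusted p 0.0332).

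Of 18 genes known as AP-1 targets 14 were tested, and 5 rose with isoproterenol while none fell, with a median of 0.40, beside the same 1.33% and 1.32% of all tested genes. The cytokine gene *Il6* rose by 1.92 (SE 0.30, adjusted p 0.00145), with means of 1.40 ± 0.597 and 6.98 ± 2.32 CPM for the empty vector and of 0.908 ± 0.506 and 2.70 ± 1.10 CPM for the sgRNA vectors (ctrl and iso, SD, n = 4). *Gja1*, the gap junction gene of connexin 43, rose by 1.02 (adjusted p 0.0134) and *Spp1*, which encodes osteopontin, by 0.96 (adjusted p 0.00469). *Plaur*, which encodes the urokinase receptor, rose by 0.77 (adjusted p 0.0180). With the block *Timp1*, a metalloproteinase inhibitor gene, was called too (0.83, adjusted p 7.24e-07). The abundant *Vim* and *Fabp4* had 0.10 and −0.34, neither of which passed. For the sgRNA effect *Il6* and *Timp1* were called as lower with the block, with −1.01 (adjusted p 0.0371) and −0.57 (adjusted p 0.001), while their fits without the block gave an adjusted p of 0.9997. With the block and without any 1 replicate number, this call of *Il6* was lost each time, at values between −1.26 and −0.80. That of *Timp1* was lost without replicate 6, where its value of −0.48 lay under the bound.

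Without all libraries of 1 replicate number and without the block, the isoproterenol calls of *Gja1*, *Spp1*, *Plaur*, *Ier3* and *Pim1* were lost at least once. The isoproterenol calls of *Sik1* and *Il6* were not. Without the 3 libraries above 40% ribosomal RNA, *Gja1* had 1.05 (adjusted p 0.0591) and *Plaur* 0.66 (adjusted p 0.109).

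Some of these genes are also made by macrophages. Of 8 macrophage markers, *Cd68* and *Cd14* were the 2 that could be tested, and both rose with isoproterenol, by 0.91 and 0.82. The summed level of the list was 8.91 to 17.5 CPM in control and 17.5 to 27.6 CPM in stimulated libraries. The defining markers *Ptprc* and *Adgre1* had 6 and 1 counts over all libraries. Among adipocyte markers 5 of 10 fell with isoproterenol, *Adipoq* by 1.06 on the log2 scale, and the part of this in the target genes was not tested. Beside the counts of called genes in this paragraph, 1.33% of all tested genes were called as higher and 1.32% as lower. Of 9 heat shock genes 8 were tested and 1, *Hsph1*, rose (0.87, adjusted p 3.92e-05), with 0.31 for *Hspa8* (adjusted p 0.0668), 0.23 for *Hsp90aa1*, 0.09 for *Dnaja1* and a median of 0.27 for this list of general stress genes.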

How the data were processed

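Polyadenylated RNA of 16 wt1-SAM libraries was sequenced in paired ends. Reads had been trimmed by cutadapt and assigned by salmon to the GENCODE M22 transcripts of GRCm38, alone or together with RNAcentral. The authors deposited the estimated counts per gene as whole numbers, not normalised (tool versions and strand use are not given in the sources used here). Total counts ranged from 9053521 to 16546187 per library, which limits the precision of low genes.

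Genes were kept by filterByExpr (minimum count 10, minimum total 15), scaled by TMM and fitted in edgeR 4.0.16 (R 4.3.3) with glmQLFit on 4 group means. Each contrast was tested two-sided by glmQLFTest, and p-values were adjusted after Benjamini and Hochberg over 13150 genes. The call rule was an adjusted p below 0.05 with a log2 fold change beyond 0.5 in size. Log2 CPM used a prior count of 2 and pair ratios a pseudocount of 0.5 counts. The rRNA relations used 100000 permutations. The scripts were tested on simulated data. Deviations from the group means correlated between 0.22 and 0.61 for equal replicate numbers and between −0.51 and 0.52 (median −0.21) for different ones. The numbers were taken to pair the libraries because all 24 equal-number correlations were over 0.1, and a replicate block was also fitted (median coefficient of variation 9.96% against 18.0%). DESeq2 1.42.0, RLE scaling, no filter, the ribosomal RNA share and leave-outs were alternatives. Coordinates came from GENCODE M21 and promoters from RefSeq GRCm38.p6. The members and lists were chosen with earlier results of these data known. The text names every member, every called gene and the 3 most abundant genes of each pathway list, 3 genes most like each tested member, and genes added after their values were seen (*Elk3*, *Nfe2l2*, overlapping genes). Some list genes that this rule covers are counted but not reported here by name.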

Additional observations from a re-analysis of the deposited data

Results flagged for a closer look

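Within each group of 4 libraries, the highest and lowest value of each member were compared with the rest of the group by Dixon's test. Of 40 such groups 3 held a library far from the others, and chance alone flags about 1 group in 20. *Junb* in empty vector cells with isoproterenol was 22.2 CPM in replicate 4, and the nearest library was at 12.2 CPM. *Fosb* was 0.361 CPM in empty ctrl replicate 3, where the nearest library had 0.723 CPM. In sgRNA ctrl replicate 3 *Fosb* was 1.119 CPM, with the nearest library at 0.684 CPM. The *Fosb* values rest on 6 and 16 counts.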

How the results depend on the processing

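Of 29 results on members, 9 kept their direction and their side of the threshold in every alternative, and 9 changed sign at least once, none of which was called after the change. *Fosl1* kept its averaged isoproterenol rise, between 0.98 and 1.29 with adjusted p from 4.54e-06 to 0.0672. The replicate block changed no member call other than those of *Fosl1* in single arms given above. Unless a cause shows in the setting itself, such as fewer libraries, the cause was not tested.

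For isoproterenol averaged over plasmids, 590 genes passed the adjusted p alone, 749 were called with the block, 730 with the block and the ribosomal RNA covariate and 635 with the block and without the 3 libraries above 40%. In empty vector cells the counts were 588 with the block, 223 with DESeq2, 174 with the covariate, 44 with only the groups compared, 567 with block and covariate, and 34 and 403 without the 3 libraries, the latter with the block. In sgRNA cells they were 513 with the block, 177 with DESeq2, 538 with block and covariate and 577 with the block and without the 3 libraries. For the sgRNA effect they were 35 with the block, 10 with DESeq2, 10 without a filter, 4 with the covariate, 14 with block and covariate, and 1 and 24 without the 3 libraries, the latter with the block. The interaction had 1 gene with block and covariate and 1 with the block and without the 3 libraries.

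The isoproterenol effect of *Egr2* was 0.055 with the block, 0.0017 without the ribosomal RNA gene, 0.033 with block and covariate and 0.057 with the block and without the 3 libraries. Without the 3 libraries that of *Jun* was 0.034, and 0.026 with the block. For the sgRNA effect, the covariate gave 0.55 for *Fos*, −0.30 for *Fosl1*, 0.15 for *Fosl2* and −0.016 for *Junb*, and with the block 0.31 for *Fos*, −0.0011 for *Fosl1*, 0.022 for *Fosl2* and −0.11 for *Ucp1*. *Fosl2* was 0.0099 without a filter. Without the 3 libraries *Fos* was 0.083 and *Fosl1* −0.20, and with the block 0.14 and −0.055.

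Leaving out single libraries or replicate numbers without the block gave 120 to 465 genes for isoproterenol averaged, 35 to 181 in empty vector cells, 29 to 98 in sgRNA cells, 0 to 2 for the sgRNA effect, 0 for the interaction and 3787 to 7610 for the replicate effect. Leaving out replicate numbers with the block gave 607 to 752, 418 to 544, 348 to 427, 16 to 26 and 0 to 1 genes for the same comparisons up to the interaction. Without the block, the lowest averaged isoproterenol count was without replicate 3 and the lowest replicate count without replicate 6. In the fits without the block, the isoproterenol effect ranged from −0.20 to 0.061 for *Jun*, −0.25 to 0.37 for *Egr2*, −0.10 to 0.25 for *Junb* and −0.10 to 0.18 for *Cebpb*, whose lowest value with the block was −0.13. The sgRNA effect ranged from −0.10 to 0.13 for *Fosl1*, −0.085 to 0.049 for *Fosl2*, −0.34 to 0.11 for *Fos* and −0.031 to 0.30 for *Egr1*, and the interaction of *Fosl1* from −0.42 to 0.034.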
